A study of Mus musculus with 5 samples.

Results

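The genes described here are the MAP kinase cascade genes of the mouse, taken by symbol: every protein-coding gene in the RefSeq annotation of GRCm38.p6 named Mapk, Map2k, Map3k, Map4k or Dusp followed by a digit. There were 73 such genes among 21887 protein-coding genes of that annotation. The measurement was binding of PU.1, an ETS transcription factor whose gene is Spi1, by chromatin immunoprecipitation and sequencing (ChIP-seq) in cDCs (conventional dendritic cells) and pDCs (the plasmacytoid kind). Both came from Flt3L culture, with the strain label C56BL/6 and 2 biological replicates each, and no treatment, genotype, age or sorting step is given in the sources used here. The only control was 1 input library, of chromatin without antibody, from cDCs. The cells are cultured and not taken from tissue, and PU.1 signal is binding and not expression. In bulk chromatin, fewer cells with PU.1 at a site and less PU.1 per cell cannot be told apart.

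MAP kinase cascades carry signals from receptors and stress to the nucleus through kinases that phosphorylate each other in tiers. MAP4Ks and small GTPases act on MAP3Ks, MAP3Ks activate MAP2Ks, and MAP2Ks phosphorylate the terminal kinases of the ERK, JNK and p38 groups. Dual-specificity phosphatases (Dusp genes) remove those phosphates, and scaffold proteins hold kinases of one pathway together. In dendritic cells these cascades act downstream of Toll-like and cytokine receptors, where cDCs take up and present antigen and pDCs are known for type I interferon.

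The locus of a gene was its span with 10 kb on each side, and its signal was the sum of read counts over the tested 10 bp windows in it, given as CPM, which scales counts to the TMM-adjusted library size. Sites are runs of neighbouring windows, and the level of a site is given at its highest window, the one with the greatest mean CPM over the 4 PU.1 libraries. Every log2 fold is pDC minus cDC with its standard error (SE), n = 2 libraries per cell type, positions are in mm10, and a locus or site was called at an adjusted p below 0.05 over all loci or all sites. Summed over windows, the PU.1 libraries had from 6896416 to 11388554 counts, the pDC libraries fewer than the cDC libraries, so that 1 count was worth 0.0864 to 0.0915 CPM in cDCs and 0.132 to 0.161 CPM in pDCs. Nothing in these data measures expression, so the labels were set beside PU.1 signal at marker loci only: 5 of 8 pDC marker loci were called higher in pDCs and 3 of 9 cDC marker loci higher in cDCs, with 0 in the opposite direction in either list (over all loci, 9.54% were higher in pDCs and 6.97% in cDCs). The lowest and highest mean levels were 5.96 and 259.6 CPM for the pDC list and 60.1 and 297 CPM for the cDC list. All windows of the called pDC marker loci Bst2, Spib and Ly6d lie also in loci of other genes. Of other cell types, 2 of 6 B cell marker loci were higher in pDCs, of 7 measured macrophage and neutrophil loci 2 were higher in pDCs and another 2 in cDCs, and 0 of 5 T and NK cell loci were called (0 also at an unadjusted p under 0.05). Their part in the results below was not tested.

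Most MAP kinase cascade loci carried PU.1 signal in both cell types, and few differed between them as whole loci. Of the 73 genes, 66 had at least 1 tested window and 7 had none, namely Dusp9, Dusp14, Map2k7, Map3k10, Map3k21, Map3k7cl and Mapk1ip1. The filter kept windows by their counts, so a locus could enter through the cell type in which it is high. Dusp8, Dusp28 and Mapk4 were higher in pDCs, which is 3 of 66 loci against 9.54% of all 15001 loci with signal. Dusp1, Map2k4 and Mapk15 were higher in cDCs, again 3 of 66, against 6.97% of all loci. The other 60 were not called, and 16 of the 66 had an unadjusted p under 0.05, beside 4518 of all 15001 loci. The members' median log2 fold was 0.06, with 36 positive and 30 negative, beside a median of 0.05 over all loci. With library sizes taken from windows with at least 1000 input counts, a scaling under which 30 and 75 of all loci were called, the calls other than that of Mapk15 were lost, at log2 folds of 2.52 for Dusp8, 1.54 for Mapk4, 1.42 for Dusp28, -1.30 for Dusp1 and -1.18 for Map2k4. The members' median level was 56.4 CPM, against 32.4 CPM over all loci. Locus levels are sums, not scaled for gene length or number of windows, so they do not compare the strength of binding between genes.

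**Figure D1:**
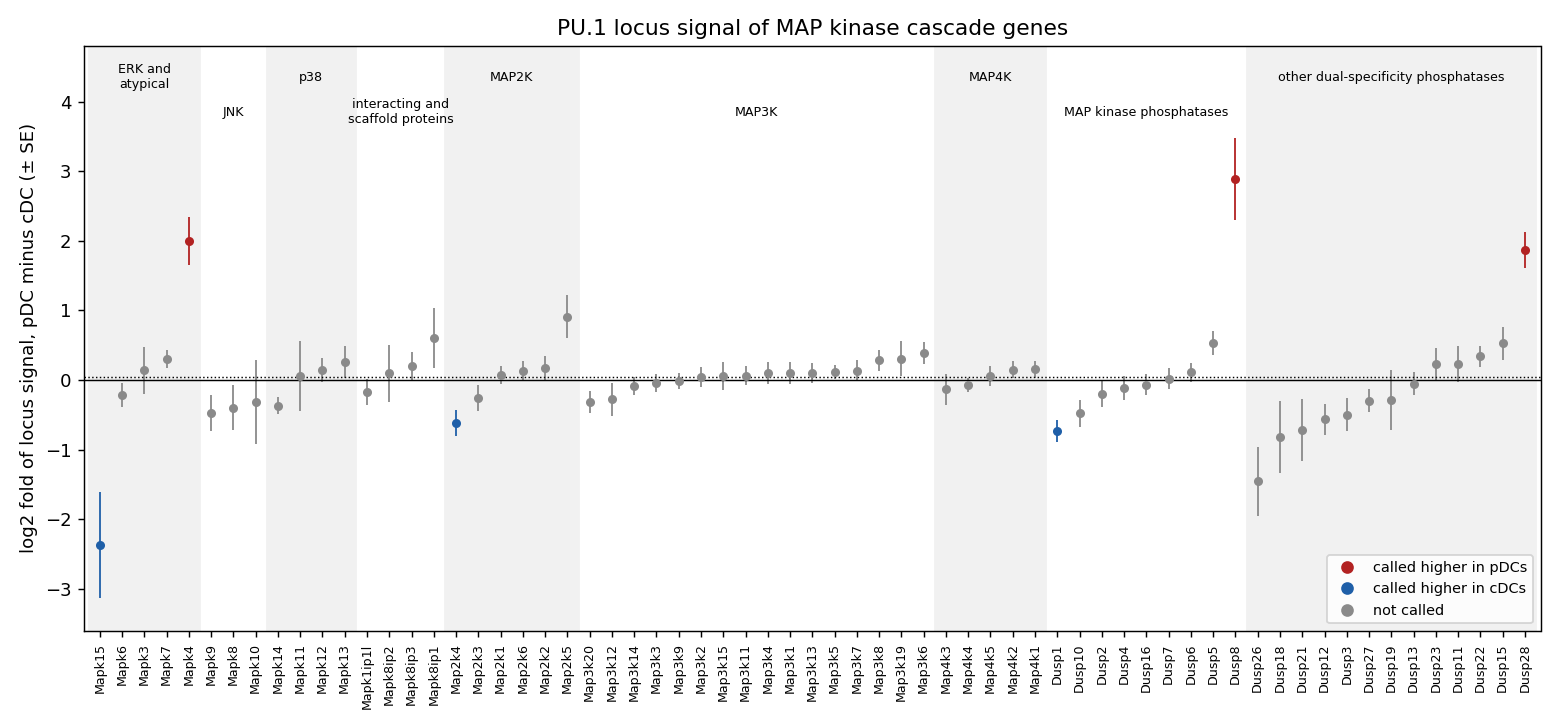
Log2 fold of the locus signal, pDC minus cDC, for the MAP kinase cascade loci with signal, 1 of them not shown, ordered by role and then by fold; points are fitted folds from 2 libraries per cell type, bars are ± SE, and the dotted line is the median of all loci. The 3 red points (Mapk4, Dusp8, Dusp28) lie at 1.87 or above, the 3 blue ones (Mapk15, Map2k4, Dusp1) at -0.61 or below, and the MAP3K loci lie between -0.31 and 0.39.

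PU.1 sites lay on the promoters of a minority of the genes. Of the 5 promoters that hold both a PU.1 site and the ETS motif GGAAGT, alone or within GAGGAAGT, 4 are shown here. In these the window counts can be read against the bases. The other is that of Map4k2, where GGAAGT starts at -117 and the highest window lies at -359 to -350, outside the promoter. Other forms of the ETS core were not searched. A promoter here is 250 bases before to 50 after an annotated start. The RefSeq promoter table (GRCm38.p6) matched 55 of the 73 genes with 70 promoters. A site overlapped 19 of the 70 (27.1%), belonging to 16 genes, against 22.9% of 21263 protein-coding promoters. None of the sites on these 19 promoters was called between cell types. The bases before the start are printed 5′ to 3′ on the gene's strand, with the motif in capitals; where the capitals read ACTTCC the motif is on the opposite strand. The stretches are chr19:53528895-53529144 (plus strand, Dusp5), chr11:106084337-106084586 (plus strand, Map3k3), chr4:31963987-31964106 (plus strand, Map3k7) and chr17:24936978-24937097 (minus strand, Mapk8ip3).
Dusp5: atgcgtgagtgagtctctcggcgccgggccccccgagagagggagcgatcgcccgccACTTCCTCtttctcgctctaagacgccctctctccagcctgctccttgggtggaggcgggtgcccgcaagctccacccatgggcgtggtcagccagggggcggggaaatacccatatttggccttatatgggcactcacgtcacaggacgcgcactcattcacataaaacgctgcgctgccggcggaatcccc
Map3k3: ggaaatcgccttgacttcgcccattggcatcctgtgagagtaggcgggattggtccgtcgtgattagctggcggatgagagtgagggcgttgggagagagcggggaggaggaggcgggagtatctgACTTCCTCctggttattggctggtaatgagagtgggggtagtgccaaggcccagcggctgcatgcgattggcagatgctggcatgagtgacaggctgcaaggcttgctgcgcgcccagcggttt
Map3k7: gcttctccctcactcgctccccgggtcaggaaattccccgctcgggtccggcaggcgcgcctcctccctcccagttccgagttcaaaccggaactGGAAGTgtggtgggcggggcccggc
Mapk8ip3: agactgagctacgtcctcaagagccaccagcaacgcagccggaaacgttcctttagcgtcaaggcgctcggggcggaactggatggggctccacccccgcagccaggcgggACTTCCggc

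Of these 4 genes, Dusp5 encodes a nuclear phosphatase of ERK, Map3k3 the kinase MEKK3, Map3k7 the kinase TAK1 of the Toll-like receptor and interleukin-1 pathways, and Mapk8ip3 a scaffold of the JNK pathway. The capitals in Dusp5 and Map3k3 are the long form, GAGGAAGT, and those in Map3k7 and Mapk8ip3 the short form, GGAAGT, which is contained in the long one. Positions count from the start as 0. In Dusp5 the long form lay at -193 to -186 and the highest window at -194 to -185, so the window covers all its bases. This window held 17.0 and 18.6 CPM in the cDC replicates and 32.6 and 22.5 CPM in the pDC replicates. Both pDC values were above both cDC values, at a log2 fold of 0.64 ± 0.23, but the site was not called (edgeR, Simes and Benjamini-Hochberg adjusted p = 0.105). In Map3k3 the long form lay at -124 to -117 beside the highest window at -136 to -127, which held 3.20 and 3.80 CPM in cDCs and 4.22 and 3.22 CPM in pDCs. The short form in Map3k7 lay at -25 to -20, with the highest window at -56 to -47 holding 4.85 and 4.41 CPM in cDCs and 6.46 and 3.70 CPM in pDCs. In Mapk8ip3 it lay at -9 to -4, with the highest window at -33 to -24 holding 6.04 and 5.62 CPM in cDCs and 8.31 and 6.11 CPM in pDCs. The cell types overlapped at Map3k3 and Map3k7 and did not at Mapk8ip3, where the site adjusted p was 0.664. Searched on both strands, GAGGAAGT was in 2 of the 70 promoters against 3.20% of all 32851 promoters in the table, and GGAAGT was in 8 of 70 (11.4%) against 23.8%. TGANTCA, the AP-1 motif, was in 4 of 70 (5.71%; Dusp13, Map2k6, Map2k7 and Map3k10) against 7.81%. The 32851 promoters, unlike the 70, are not limited to protein-coding genes, and the differences between these shares were not tested. A match is a description of these bases and not a measured binding site. Promoter sites without any of the 3 motifs came close to a call at Dusp6 (adjusted p = 0.0598) and Map2k1 (adjusted p = 0.0760), both with the higher values in pDCs.

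**Figure D2:**
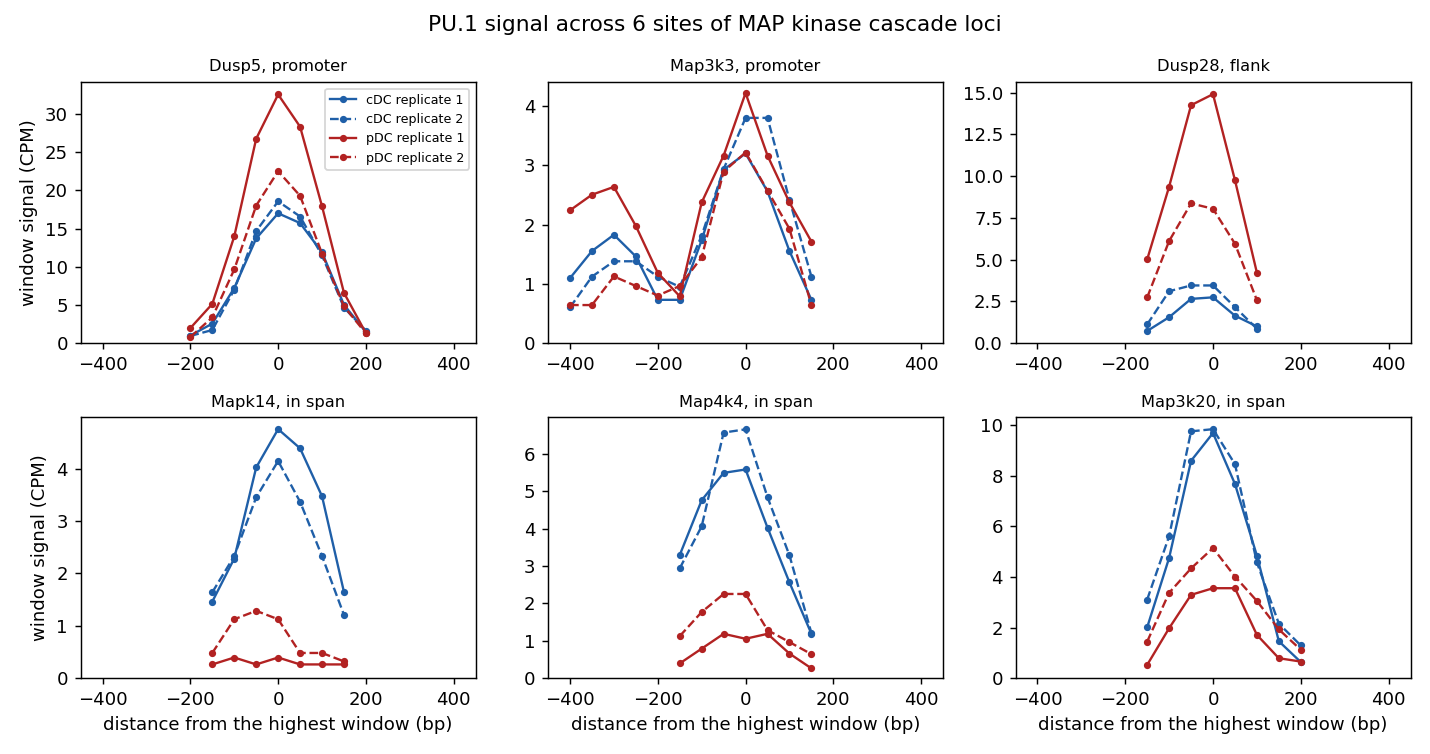
Window signal (CPM) against distance from the highest window (bp) at 6 sites, 1 line per PU.1 library. At the Dusp5 and Map3k3 promoters the cDC and pDC lines have one shape and the sites were not called, at the highest window of the Dusp28 flank both pDC libraries are above both cDC libraries, and at the highest window of the sites in the Mapk14, Map4k4 and Map3k20 spans both cDC libraries are above both pDC libraries; beside it the Map3k20 lines cross.

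The terminal kinases of the ERK group and its atypical relatives (6 genes, all with signal) included 1 locus higher in pDCs and 1 higher in cDCs. Mapk3, which encodes ERK1, was not called. Mapk3 held 7.68 and 8.55 CPM in cDCs and 9.49 and 8.37 CPM in pDCs, at 0.14 ± 0.34. The Mapk3 values overlapped, and its locus was thinly covered, with 6 windows and 52 to 99 counts per library. Mapk4, an atypical MAP kinase (chromosome 18, 73928486 to 74065434), held 4.57 and 6.57 CPM in cDCs and 27.2 and 17.2 CPM in pDCs. Both pDC libraries were above both cDC libraries, and the log2 fold was 1.99 ± 0.34 (edgeR adjusted p = 0.00172). All of this signal was 1 site of 5 windows inside the gene span, which no other protein-coding locus shares, and the locus call held without each library in turn. Mapk15, an atypical kinase also known as ERK8 (chromosome 15, 75993732 to 75999153), lay in the other direction at -2.37 ± 0.76 (edgeR adjusted p = 0.0469), on few counts. Its 3 windows held 47 and 59 counts in the cDC replicates and 0 and 12 in the pDC replicates, lay 9148 bp outside the gene span, and are shared with the loci of Fam83h and Iqank1. That call was lost without cDC replicate 2 (-2.23, edgeR adjusted p = 0.0524) and without pDC replicate 1 (-1.28, 0.122), and by the DESeq2 Wald test (-2.29, 0.604), and with no filter on windows the fold was -0.21. With flanks of 50 kb it was 0.28. Mapk6 (-0.22 ± 0.18) and Mapk7, the gene of ERK5 (0.30 ± 0.13), were not called.

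The 3 JNK genes all had negative log2 folds and none was called. The median of the group was -0.40. Mapk8, which encodes JNK1, held 21.9 and 21.7 CPM in cDCs and 10.8 and 22.5 CPM in pDCs, so the pDC replicates lay on both sides of the cDC values (-0.40 ± 0.32). Without pDC replicate 2 it was called higher in cDCs (-1.01), and without pDC replicate 1 its fold was 0.05, with no call. Mapk9, which encodes JNK2, held 26.2 and 26.3 CPM in cDCs and 21.1 and 16.6 CPM in pDCs (-0.47 ± 0.25, edgeR adjusted p = 0.229). Both pDC values were lower, and 1 of its 3 sites, 1218 bp outside the span, was higher in cDCs (adjusted p = 0.0453). That site lost its call without cDC replicate 1 (adjusted p = 0.373) and without cDC replicate 2 (0.196). The sign of Mapk9 depended on the flanks: the gene span alone gave 1.20 (edgeR adjusted p = 0.0591). With windows of mean 30 counts or more it was called higher in cDCs (-1.21, edgeR adjusted p = 0.0144). Mapk10, the JNK gene best known from the nervous system, had only 2 windows and 1.93 CPM on average.

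Among the 4 p38 genes the largest signal was at Mapk14, which encodes p38α, the main p38 kinase of myeloid cells. Its locus (chromosome 17, 28691342 to 28748405) held 180.6 and 194.8 CPM in cDCs and 153.0 and 138.3 CPM in pDCs. Both pDC libraries were lower, but the log2 fold of -0.37 ± 0.13 missed the threshold (edgeR adjusted p = 0.0617). It passed in 7 of 15 other settings, among them without pDC replicate 1 (-0.44), without pDC replicate 2 (-0.30) and by the DESeq2 Wald test (-0.41, adjusted p = 0.0276). It did not pass without cDC replicate 1 (-0.42) or without cDC replicate 2 (-0.31). At a mean of at least 30 counts it did not pass either (-0.21, edgeR adjusted p = 0.410). One of its 12 sites differed far more than the locus: at 28698101 to 28698410, inside the gene span and also within the locus of Slc26a8, the highest window held 4.76 and 4.15 CPM in cDCs and 0.396 and 1.13 CPM in pDCs. That window had a log2 fold of -2.59 ± 0.46 (site adjusted p = 0.000580), and the site kept its call in all 9 settings in which the same sites were tested. Mapk13, which encodes p38δ, held 24.4 and 25.6 CPM in cDCs and 29.4 and 30.4 CPM in pDCs (0.26 ± 0.23, not called). Mapk11 (0.06 ± 0.50) and Mapk12 (0.15 ± 0.17) neighbour each other and share all 8 windows of the Mapk11 locus, so their folds are not independent.

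Of the MAP2K genes, which activate the terminal kinases, 6 of 7 had signal and Map2k4 was called. Map2k4 encodes MKK4, an activator of JNK and p38 (chromosome 11, 65688244 to 65788359). Its locus held 63.9 and 65.7 CPM in cDCs and 38.1 and 46.8 CPM in pDCs, and both pDC libraries were lower (-0.61 ± 0.18, edgeR adjusted p = 0.0344). The call was lost without cDC replicate 1 (-0.63, edgeR adjusted p = 0.305) and without cDC replicate 2 (-0.59, 0.325), by the gene span alone (-0.58, 0.121) and against a minimum fold of 1.5. The 8 Map2k4 sites did not all go one way. A site 6092 bp outside the span (65794451 to 65794710) held 5.40 and 4.49 CPM in cDCs and 1.58 and 2.25 CPM in pDCs at its highest window and was higher in cDCs (-1.38 ± 0.36, site adjusted p = 0.0142). One on the other side, 7784 bp outside the span (65680351 to 65680460), held 0.640 and 0.346 CPM in cDCs and 2.24 and 2.57 CPM in pDCs and was higher in pDCs (2.26 ± 0.53, site adjusted p = 0.00346). The first of these 2 calls was lost without cDC replicate 1 (adjusted p = 0.277) and the second without cDC replicate 2 (0.0579). Map2k1, which encodes MEK1, had the highest level of the tier, with 149.1 and 139.2 CPM in cDCs and 160.1 and 143.0 CPM in pDCs (0.07 ± 0.13). Its replicates overlapped between cell types. The p38 activators Map2k3 (-0.26 ± 0.19) and Map2k6 (0.14 ± 0.14) were not called, although each held 1 site higher in pDCs, calls that were lost without cDC replicate 1 (adjusted p = 0.0690 and 0.151) and without pDC replicate 1 (0.322 and 0.161). Map2k5, the activator of ERK5, lay at 0.91 ± 0.31 just outside the threshold (edgeR adjusted p = 0.0563). Its cDC libraries held 15.2 and 9.42 CPM and its pDC libraries 26.4 and 19.8 CPM.

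No MAP3K locus was called among the 16 of 19 with signal by edgeR (1 with an unadjusted p under 0.05) or by the DESeq2 Wald test, and their log2 folds spanned -0.31 to 0.39. Without pDC replicate 2, Map3k6 and Map3k8 (0.39) were called higher in pDCs and Map3k20 higher in cDCs. In that fit more loci were called over all genes too. In settings with other windows or libraries, Map3k12 was called higher in cDCs by the gene span alone, by nearest gene and without pDC replicate 1, and Map3k20 at a mean of at least 30 counts. This tier held the highest locus sum of the family. Map3k5, which encodes the stress kinase ASK1 (chromosome 10, 19934101 to 20142750), carried 367.8 and 358.2 CPM in cDCs and 392.0 and 395.9 CPM in pDCs, a mean of 378.5 CPM that exceeded 99.4% of all loci. Its 95 windows formed 19 sites in the locus of a span of 208650 bp, and the fold was 0.12 ± 0.10. Map3k9 (250.1 CPM), Map3k14 (172.8 CPM) and Map3k3 (158.7 CPM) followed, at log2 folds of -0.01 ± 0.11, -0.09 ± 0.13 and -0.04 ± 0.12. Map3k14 encodes NIK, the kinase of non-canonical NF-κB signalling, and the Map3k9 product is a mixed-lineage kinase. Map3k7 held 74.5 and 76.9 CPM in cDCs and 81.4 and 84.5 CPM in pDCs (0.13 ± 0.15). Map3k8, which encodes TPL2, the kinase that links Toll-like receptors to ERK, held 79.1 and 86.0 CPM in cDCs and 108.1 and 93.1 CPM in pDCs (0.29 ± 0.15, edgeR adjusted p = 0.221). In both genes the pDC values were above the cDC values by less than the test could call. Map3k1, which encodes MEKK1, had overlapping values at 0.10 ± 0.16.

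The MAP4K tier had the highest median locus sum of the groups, 177.8 CPM over 5 genes. In this tier 0 loci were called by edgeR (0 also at an unadjusted p under 0.05) or by the DESeq2 Wald test. Without pDC replicate 2, where more loci were called over all genes too, Map4k1 and Map4k2 were called at 0.23 and 0.24. Map4k4, a kinase of the JNK and Hippo pathways (chromosome 1, 39900902 to 40026310), carried 386.4 and 367.8 CPM in cDCs and 348.8 and 369.7 CPM in pDCs (-0.07 ± 0.11). The values overlapped. Map4k2, known as germinal centre kinase, carried 183.2 and 189.3 CPM in cDCs and 219.7 and 194.0 CPM in pDCs (0.15 ± 0.12). Map4k1, the haematopoietic kinase HPK1, carried 165.4 and 171.0 CPM in cDCs and 197.7 and 177.1 CPM in pDCs (0.16 ± 0.12), on windows that all lie also in the loci of Ryr1 or Eif3k. These 3 loci stayed close to equality although each held sites that were called, as given below.

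The MAP kinase phosphatases with a kinase-binding domain (9 of 10 genes with signal) included 1 locus called in each direction. Dusp1, an early-response gene whose product dephosphorylates p38 and JNK (chromosome 17, 26505591 to 26508472), held 93.5 and 95.0 CPM in cDCs and 51.3 and 62.3 CPM in pDCs. Both pDC libraries were below both cDC libraries, and the log2 fold was -0.73 ± 0.16 (edgeR adjusted p = 0.00741). Without cDC replicate 1 the call was lost at -0.74 (edgeR adjusted p = 0.109), without cDC replicate 2 at -0.72 (0.112), and against a minimum fold of 1.5 as well. The locus has 2 sites, both outside the gene span and neither called on its own. The stronger one (26497301 to 26498010, 7581 bp outside the span) held 12.7 and 12.4 CPM in cDCs and 6.99 and 6.76 CPM in pDCs at its highest window (-0.87 ± 0.24, site adjusted p = 0.103). Dusp8, which encodes a JNK and p38 phosphatase (chromosome 7, 142079487 to 142095907), was higher in pDCs at 2.89 ± 0.59 (edgeR adjusted p = 0.00453), on 16 and 5 counts in cDCs against 72 and 28 in pDCs. Its 3 windows formed 1 site inside the span. With flanks of 50 kb the Dusp8 fold was -0.02.

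Dusp5 came nearest to a call among the other phosphatases of this class. Its locus (chromosome 19, 53529145 to 53541809) held 80.4 and 81.5 CPM in cDCs and 139.8 and 94.3 CPM in pDCs, and both pDC libraries were higher (0.53 ± 0.18, edgeR adjusted p = 0.0502). It passed in 5 of 15 other settings, among them flanks of 50 kb (0.65, edgeR adjusted p = 0.0153) and a mean of at least 30 counts (0.54, 0.0427). The fold fell to 0.22 without pDC replicate 1 (edgeR adjusted p = 0.275), and the gene span alone gave -0.16 (0.852). Dusp6, whose product is a cytoplasmic ERK phosphatase, had the highest level of the class at 136.5 CPM (0.11 ± 0.14), and 1 of its 8 sites, 1971 bp outside the span, was higher in pDCs (adjusted p = 0.0226; 0.571 without cDC replicate 2 and 0.0758 without pDC replicate 1). Dusp10, a JNK and p38 phosphatase, held 64.2 and 62.0 CPM in cDCs and 37.98 and 52.8 CPM in pDCs (-0.48 ± 0.20, edgeR adjusted p = 0.112). Both of its pDC values were below the cDC values, and the locus was called without pDC replicate 2 (-0.73, edgeR adjusted p = 0.000279) and lay at -0.26 without pDC replicate 1 (0.294). With flanks of 50 kb the Dusp10 fold was 0.15 and with the gene span alone -0.23, both without a call. The fold of Dusp2, a phosphatase of activated leukocytes, was -0.20 ± 0.19, that of Dusp4, a nuclear phosphatase, -0.11 ± 0.17, and that of Dusp16, a JNK phosphatase, -0.07 ± 0.15. None of these was called, and all windows of the Dusp2 locus lie also in that of Astl.

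The other dual-specificity phosphatases (13 of 14 genes with signal) had 1 called locus. Dusp28, an atypical member of the family (chromosome 1, 92906989 to 92908620), held 14.4 and 19.6 CPM in cDCs and 77.3 and 46.7 CPM in pDCs. Each pDC library was above both cDC libraries, and the log2 fold was 1.87 ± 0.26 (edgeR adjusted p = 0.000501), and all 3 sites of the locus were higher in pDCs. All 13 windows lie also in the locus of Ankmy1 and 12 of them in that of Rnpepl1, so the signal cannot be assigned to 1 gene. With flanks of 50 kb the fold was 0.39 and the call was lost (edgeR adjusted p = 0.168). Dusp22, which encodes a JNK-pathway phosphatase, held 93.0 and 76.1 CPM in cDCs and 113.3 and 100.5 CPM in pDCs (0.34 ± 0.15, edgeR adjusted p = 0.155). Its cell types did not overlap, and without pDC replicate 2 it was called (0.42). The Dusp22 fold was 0.25 without pDC replicate 1 and 0.0004 with flanks of 50 kb. With library sizes taken from windows with at least 1000 input counts it was -0.15. Dusp26 (-1.46 ± 0.50, edgeR adjusted p = 0.0595) lay just outside the threshold on 3 windows shared with Rnf122.

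**Figure D3:**
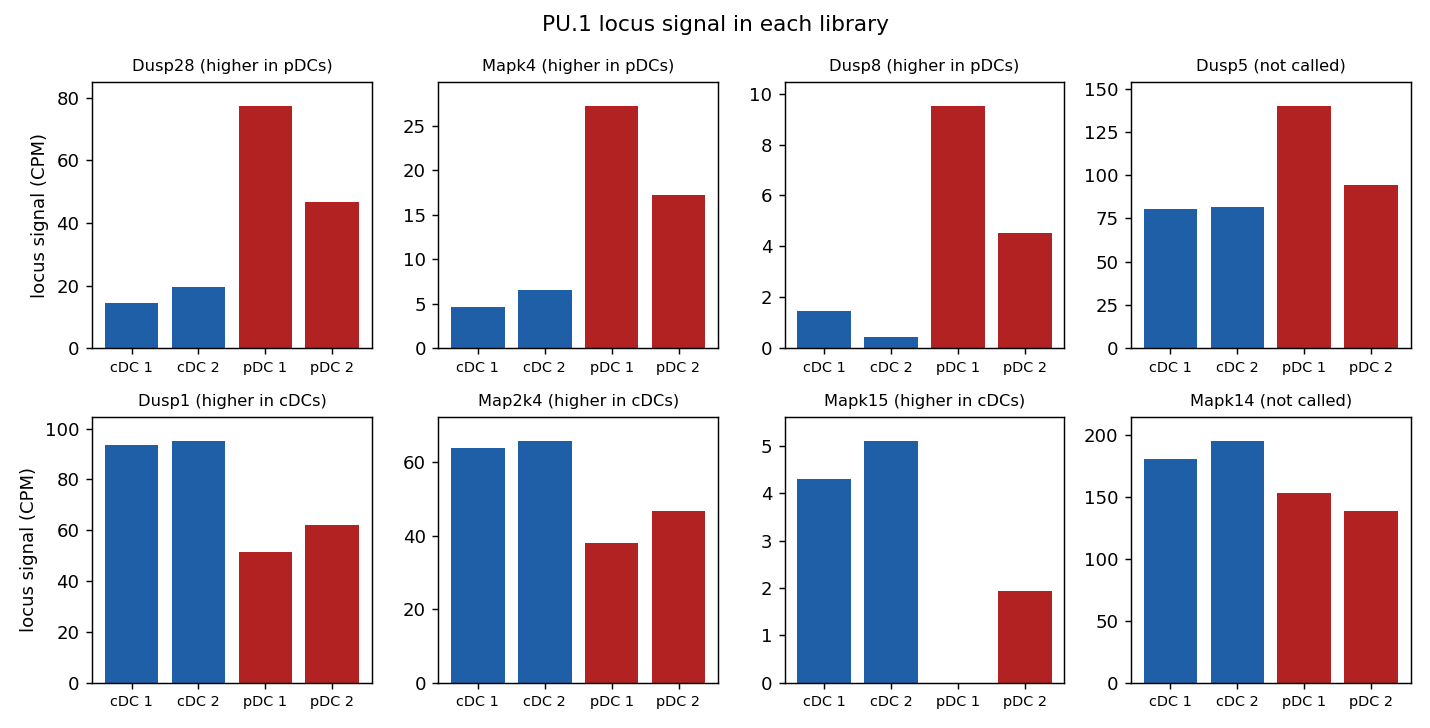
Locus signal (CPM) in each PU.1 library, 1 bar per library, for the 6 called loci and for Dusp5 and Mapk14, which were not called. The pDC bars of Dusp28, Mapk4 and Dusp8 are above both cDC bars, those of Dusp1, Map2k4 and Mapk15 below them, and the Mapk15 locus has 0 counts in pDC replicate 1.

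Site by site, 42 PU.1 sites of the family were called between cell types, a share close to or below that over all loci. The 66 loci held 348 sites, of which 22 were higher in pDCs against 7.78% of the 44112 sites in any protein-coding locus, and 20 were higher in cDCs against 5.83%. The members' shares were 6.32% and 5.75%. At the highest window of each of the 42 called sites the cDC and pDC libraries did not overlap. The sites were called on these same libraries, so this adds no support to the calls. The share over all called sites was not counted. The calls depended on single libraries: of the 42, 10 were kept when cDC replicate 1 was left out and 16 when cDC replicate 2 was. Leaving out pDC replicate 1 kept 15 of them, and leaving out pDC replicate 2 kept all 42. These sites lay in the loci of 30 genes, or 45.5% of the 66, against 32.1% of all loci with signal that hold a called site. Of the 60 uncalled loci 25 held one (41.7%), against 21.5% of all uncalled loci. Member loci held a median of 4 sites and all loci a median of 3, and the differences between these shares were not tested. Of the 42 sites, 34 were in uncalled loci. Inside the span of their gene lay 32 sites, and 10 lay in the flanks. By tier, MAP3K loci held 6 sites higher in pDCs and 7 higher in cDCs of 125, MAP4K loci 4 and 5 of 51, and MAP2K loci 4 and 1 of 34. The MAP kinase phosphatases had 2 in each direction of 39, the other dual-specificity phosphatases 4 and 1 of 43, the ERK group 1 and 2 of 21, and the JNK and p38 groups 1 each, both higher in cDCs, of 7 and 19. Against the cDC input, 167 of the 348 member sites were above it in cDCs (48.0%, against 46.4% of the sites in any locus) and 151 in pDCs (43.4%, against 42%). Of the 22 sites higher in pDCs, 13 were above input in pDCs and 5 in cDCs. Of the 20 higher in cDCs, 12 were above it in cDCs and 3 in pDCs. The same libraries gave the calls, so these counts add no support to them. The loci of Dusp8, Mapk15 and Map3k12 held 0 sites above input in either cell type. These counts rest on how the input is scaled, since windows with at least 1000 input counts held 74.6% of it. With those windows left out of the library sizes, 12 and 13 of the 348 sites remained above input in cDCs and pDCs.

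Sites of opposite direction within 1 locus were found in 5 genes (7.58% of the 66 loci, against 3.73% of all loci, not tested), Map2k4, Map3k13, Map3k20, Map4k1 and Map4k5, and the locus sums of the last 4 were not called. At Map3k13, which encodes the kinase LZK, a site inside the span (chromosome 16, 21881251 to 21881510) held 2.93 and 4.06 CPM in cDCs and 9.76 and 10.1 CPM in pDCs at its highest window (1.5 ± 0.28, site adjusted p = 0.00126). Another inside the span (21842201 to 21842510) held 7.23 and 8.12 CPM in cDCs and 2.64 and 3.86 CPM in pDCs (-1.26 ± 0.30, site adjusted p = 0.0202). The locus sum of Map3k13 had a log2 fold of 0.10 ± 0.15. Map3k20, the gene of the ribotoxic stress kinase ZAK, had a site at chromosome 2, 72332151 to 72332460, with 9.70 and 9.85 CPM in cDCs and 3.56 and 5.15 CPM in pDCs (-1.18 ± 0.28, site adjusted p = 0.0109). A second Map3k20 site (72410001 to 72410260) was higher in pDCs (1.72 ± 0.47, site adjusted p = 0.0213). All 4 of these calls were lost without cDC replicate 1 (adjusted p from 0.0973 to 0.224), and all but that of the Map3k13 site higher in pDCs also without cDC replicate 2 (0.0647 to 0.252). Map4k5 held 2 sites in each direction among 10, and its locus sum lay at 0.06 ± 0.15. These 4 calls and the 2 of Map4k1 were lost without cDC replicate 1 (adjusted p from 0.0783 to 0.469), without cDC replicate 2 (0.0602 to 0.417) and without pDC replicate 1 (0.0539 to 0.381).

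Among the sites higher in pDCs, the smallest adjusted p belonged to Map4k2. That site (chromosome 19, 6343751 to 6343860), inside the gene span and in the locus of Men1 too, had 0 and 3 counts in the cDC replicates and 26 and 14 in the pDC replicates at its highest window. Both pDC libraries were higher, at a log2 fold of 4.30 ± 0.70 (site adjusted p = 0.000206), and the call held in all 9 settings. The main Dusp28 site (chromosome 1, 92900351 to 92900610, 6379 bp outside the span) held 2.74 and 3.46 CPM in cDCs and 14.9 and 8.04 CPM in pDCs (1.90 ± 0.30, site adjusted p = 0.000286), and it kept its call in 8 of 9 settings. The other 2 sites of that locus were less stable: the one at 92907651 to 92907810 was called in 5 of 9 settings and lost without cDC replicate 1 (adjusted p = 0.0658), cDC replicate 2 (0.122) or pDC replicate 1 (0.102), and the one at 92912501 to 92912610 was called in 3 of 9. The Mapk4 site (chromosome 18, 73988901 to 73989110) held 1.28 and 1.81 CPM in cDCs and 7.65 and 4.67 CPM in pDCs (1.99 ± 0.36, site adjusted p = 0.00144; 0.0599 without cDC replicate 1). The Map2k5 site (chromosome 9, 63192901 to 63193060), which lies inside the span, held 1.46 and 1.04 CPM in cDCs and 5.67 and 3.54 CPM in pDCs (1.89 ± 0.40, site adjusted p = 0.00479; 0.0949 without cDC replicate 2 and 0.0560 without pDC replicate 1). In all of these the lower pDC library was above the higher cDC library. The remaining 4 of the 10 sites with the smallest adjusted p, besides those of Map3k13 and Map2k4, were at Dusp8, Dusp13, Mapk8ip3 and Map2k3, with log2 folds of 2.85, 2.38, 2.70 and 2.69 at their highest windows. They are short sites of 2 or 3 windows with no more than 6 counts in any cDC library, so these folds rest on few reads. Without pDC replicate 1 none of these 4 was called (adjusted p from 0.0562 to 0.322).

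Among the sites higher in cDCs, that of Mapk14 had the smallest adjusted p. A site inside Map4k4 (chromosome 1, 39969101 to 39969410) followed, with 5.58 and 6.65 CPM in cDCs and 1.06 and 2.25 CPM in pDCs (-1.92 ± 0.37, site adjusted p = 0.00277). Both pDC libraries were lower, and the call held in all 9 settings. A second Map4k4 site (39944051 to 39944260) had 4.12 and 3.54 CPM in cDCs and 0.791 and 1.77 CPM in pDCs (-1.61 ± 0.43, site adjusted p = 0.0211). Its call was lost without cDC replicate 1, cDC replicate 2 or pDC replicate 1 (adjusted p = 0.233, 0.0677 and 0.0612). At Map3k12, the gene of the dual leucine zipper kinase of neurons, the site at chromosome 15, 102502251 to 102502460 had 34 and 27 counts in cDCs and 4 and 0 in pDCs (-3.18 ± 0.66, site adjusted p = 0.00375). At Map3k14 a site inside the span (chromosome 11, 103223551 to 103223710) had 35 and 29 counts in cDCs and 2 and 5 in pDCs (-2.45 ± 0.55, site adjusted p = 0.00793). These last 2 sites had no more than 5 counts in any pDC library, and both calls were lost without cDC replicate 1 (adjusted p = 0.0526 and 0.0860), that of Map3k14 also without pDC replicate 1 (0.0653). Sites at Dusp12 (chromosome 1, 170874651 to 170874810, -2.02 ± 0.64, site adjusted p = 0.00693) and Dusp10 (chromosome 1, 184049201 to 184049310, -2.23 ± 0.60, site adjusted p = 0.0173) complete the 10 with the smallest adjusted p, together with those of Map3k20, Map2k4 and Map3k13 given above. The Dusp12 call was lost without cDC replicate 2 (adjusted p = 0.461) and the Dusp10 call without cDC replicate 1 (0.409) and pDC replicate 1 (0.0575). Of the 42 called sites, those of Map4k2, Map4k4 (39969101 to 39969410) and Mapk14 kept their call in all 9 settings, and the other 39 lost it in at least 1.

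**Figure D4:**
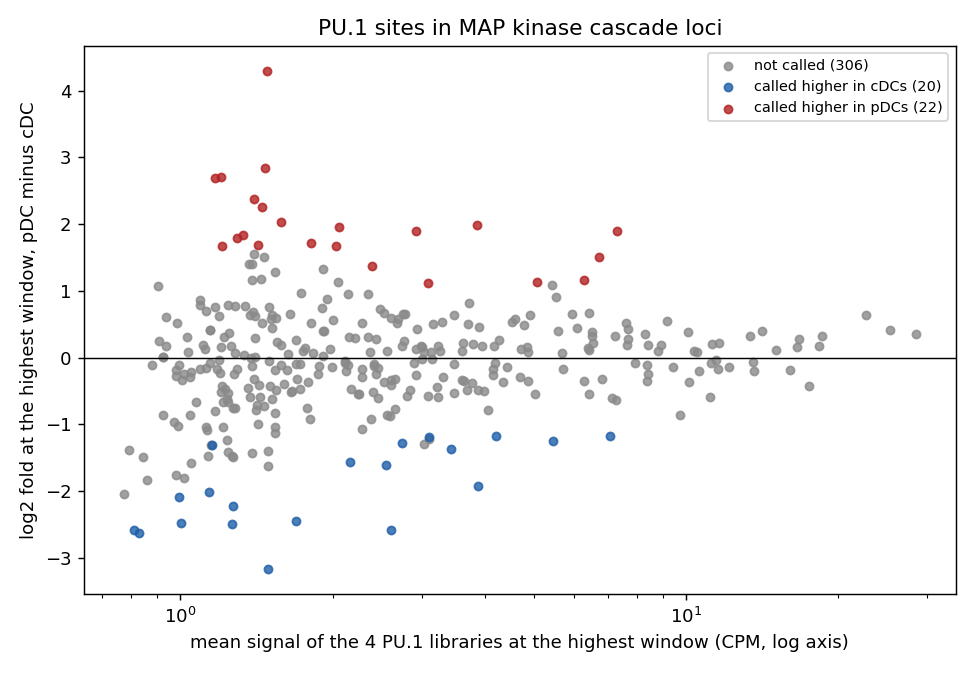
Log2 fold at the highest window, pDC minus cDC, against the mean CPM of the 4 PU.1 libraries there (log axis), 1 point per site, for the 348 sites in MAP kinase cascade loci. Red and blue points are the 22 and 20 called sites; the rightmost called point lies at 7.29 CPM, and the 35 strongest sites, from 8.38 CPM upward, are all grey.

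The strongest PU.1 sites of the family were not called between cell types. The highest was at the start of the Map3k6 span (chromosome 4, 133237901 to 133238310), the gene of a kinase related to ASK1, with 24.1 and 26.1 CPM in cDCs and 37.3 and 26.4 CPM in pDCs (0.35 ± 0.23). The next were 4834 bp outside Mapk7 (chromosome 11, 61499101 to 61499510, 25.3 CPM on average, 0.41 ± 0.22), at the Dusp5 promoter shown above (22.7 CPM), 5042 bp outside Map4k4 (chromosome 1, 39895501 to 39895860, 18.5 CPM, 0.33 ± 0.23) and inside Map4k2 (chromosome 19, 6352151 to 6352460, 18.4 CPM, 0.18 ± 0.22). The lower pDC library was above both cDC libraries at all 5 of these sites, without a call at any. At Map3k6 the margin was small, 26.4 against 26.1 CPM. How often other sites show this order was not counted, so it is no sign of a difference. Of the 35 strongest member sites, from 8.38 CPM upward, 0 were called by edgeR, beside 14.3% of the 3969 sites of that strength in any protein-coding locus. The strongest called site was that of Dusp28, at rank 42. The difference between these shares was not tested. Near gene starts, within 1 kb, lay 63 of the 336 member sites on chromosomes with listed starts (18.8%), against 19.4% of such sites in any locus, and 3 of the 21 higher in pDCs and 2 of the 20 higher in cDCs.

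Other genes of the pathway, a list of 73 that are not members, were called about as often as loci in general. Of the 69 with signal, 6 loci had more PU.1 in pDCs and 6 more in cDCs, beside the 9.54% and 6.97% of all loci, and the median log2 fold was 0.03. Among the Ras guanine nucleotide exchange factors, which switch Ras on upstream of the ERK cascade, Rasgrp1 (0.68 ± 0.18) and Rasgrp2 (1.62 ± 0.28) were higher in pDCs and Rasgrp3 (-1.20 ± 0.25) was higher in cDCs. Rasgrp3 held 106.6 and 102.6 CPM in cDCs and 29.3 and 62.6 CPM in pDCs, without overlap. Ksr1, the scaffold of the RAF-MEK-ERK module (0.79 ± 0.13), Spry4, an inhibitor of the pathway (1.44 ± 0.28), Mknk1, a kinase downstream of ERK and p38 (0.42 ± 0.13), and the GTPase gene Rac2 (0.65 ± 0.16) were also higher in pDCs. Rac1 (-0.58 ± 0.16), Myc (-0.73 ± 0.16), the TAK1-binding protein gene Tab1 (-1.15 ± 0.29) and the phosphatase genes Ppm1b (-1.09 ± 0.20) and Ptprr (-0.60 ± 0.16) were higher in cDCs. The edgeR adjusted p of these 12 loci lay between 0.00121 and 0.0432, given for the main setting alone. All windows of the Rasgrp2 locus, 70% of those of Spry4 and 64.7% of those of Ppm1b lie also in loci of other genes. For Mknk1, Rac1 and Rac2 the shares were 46.9%, 28% and 25.6%. The AP-1 genes Fos (-0.06 ± 0.15), Jun (0.02 ± 0.22), Junb (-0.14 ± 0.11) and Jund (-0.08 ± 0.18), which the cascades induce or activate, were not called.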

How the data were processed

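Per the labels, PU.1 was precipitated with an antibody from paraformaldehyde-crosslinked, sonicated chromatin and sequenced as 49 bp single-end reads. The values are raw read counts per 10 bp window as deposited by the authors, without normalisation; Subread 1.4.4 and build mm10 are named in the submitters' processing notes, and how windows were chosen is not given in the sources used here. Of 329996 deposited windows, each with at least 33 counts summed over the 5 libraries, filterByExpr (minimum count 10) kept 286435. Neighbouring windows can share reads, so totals over windows are not the sequencing depth, which is unknown.

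Windows and locus sums were each compared with the edgeR 4.0.16 quasi-likelihood test (R 4.3.3, limma 3.58.1), cell type as the only term and TMM factors of the tested windows; the biological coefficient of variation was 0.159 for windows and 0.154 for loci. Sites joined windows no more than 100 bp apart, split at 5000 bp, with a Simes p, and Benjamini-Hochberg adjustment ran over all 60527 sites or all 15001 loci. A site takes its direction from the window of smallest p, and the printed fold is from its highest window. The printed SE is implied by the F statistic. Genes came from RefSeq GRCm38.p6 as spans without exons (GenomicRanges 1.54.1); 36 of the 66 loci share windows with another gene. For signal over input, all 5 libraries entered 1 fit with totals as library sizes; a site needed a fold of 2 or more at an adjusted p below 0.05, and the lone input library is taken to vary as the others do. With 2 against 2 libraries the smallest two-sided exact permutation p is 0.333, so no value was tested alone. Replicates were distinct libraries (mean chi-square per window 1.40 between cDC and 2.16 between pDC replicates). Only the locus fit and the site test of the main setting were run on simulated counts.

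The members and lists were chosen with earlier results of these data known. Named with values were a list of well-known members, all called loci, the 10 highest loci, the 10 called sites per direction with the smallest adjusted p and the 5 strongest sites; other genes were named after their values were seen. One member is in the counts but is not reported here. Alternatives covered scaling, filters, flanks, joining, DESeq2 1.42.0, a replicate block, a minimum fold and each replicate left out.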

Additional observations from a re-analysis of the deposited data

How the results depend on the processing

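The counts of called loci and sites depended on scaling and on single libraries. Main counts were 3 loci in each direction, 22 sites with more PU.1 in pDCs and 20 with more in cDCs. Library-size scaling gave 6 loci higher in cDCs, beside 1486 of all 15001 loci. It gave 20 sites higher in pDCs and 29 in cDCs, beside 4218 and 5057 of all 60527 sites. The median log2 fold of all loci moved from 0.05 to -0.08. Scaling to the 146 windows with at least 1000 input counts left 0 loci higher in pDCs and 1 in cDCs. It gave 2 sites higher in pDCs and 26 in cDCs, beside 1029 and 3850 of all 60527 sites. The median of all loci was then -0.46, with 30 and 75 of all loci called. These windows held 17.98% of the counts of pDC replicate 2, against 9.155% to 10.45% in the other PU.1 libraries. The part of this difference in the calls was not tested. Flanks of 50 kb gave 5 loci higher in cDCs, beside 1399 of all 17791 loci with signal. Dusp8 then lay at -0.02 (-0.01946 before rounding) and Mapk15 at 0.28, both with the opposite sign. Against a minimum fold of 1.5, 0 loci were higher in cDCs by edgeR, while Dusp28, Mapk4 and Dusp8 kept their call. Over all 15001 loci, 135 were then higher in cDCs and 326 in pDCs. With windows of mean 30 counts or more, 6 sites were higher in pDCs and 9 in cDCs, where fewer windows were tested. Over all 19429 sites of that setting, 1963 were higher in pDCs and 2260 in cDCs. Leaving out 1 library gave 3 to 13 loci higher in pDCs and 0 to 12 in cDCs, and 7 to 41 and 3 to 49 sites; the highest counts came without pDC replicate 2, a fit with no spread between pDC libraries, and the lowest for sites without cDC replicate 1. With library sizes that leave out the windows rich in input counts, 12 member sites were above input in cDCs and 13 in pDCs, in place of 167 and 151. TMM factors of the locus sums, chosen after seeing the data, gave 4 and 4 loci, beside 1408 and 1240 of all 15001. For single named loci, 429 of the values under other settings kept their call or lack of one, 18 lost a call, 21 gained one and 2, those of Dusp8 and Mapk15 above, were called in the main comparison and changed sign; uncalled folds near 0 changed sign as well. Where no cause is named above, the cause was not tested.

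Same-numbered libraries showed no shared deviation, at a correlation of 0.01 over windows and -0.01 over loci. This cannot decide whether they came from the same culture or run. The replicate block gave 5 loci and 23 sites with more PU.1 in pDCs, and 4 loci and 21 sites with more in cDCs. Over all 15001 loci it gave 1589 and 1231, and over all 60527 sites 5392 and 4288. Depth limits the thinly covered loci most: Mapk15, Dusp8 and Mapk10 rest on 2 or 3 windows each.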
